A study of Mus musculus with 12 samples.

Results

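The genes described here are the classical regulators of epithelial-mesenchymal transition (EMT) and its main marker genes, 9 genes in all: Snai1, Snai2, Snai3, Twist1, Twist2, Zeb1, Zeb2, Vim and Fn1. They were chosen by name, and each has its own entry among the 23226 single-name genes of the authors' deposited table. RNA from 3 mouse small cell lung cancer lines was sequenced in 12 samples, 2 in each of 6 groups. All 3 lines lack Trp53 and Rb1 (Trp53-/-;Rb1-/-), come from tumors and grow in suspension as spheres. The 16T line, labelled Nfib high, carried an Nfib shRNA in 2 samples and a control shRNA in the other 2. The KP1 line, also labelled Nfib high, carried the Nfib shRNA in 2 samples and the control shRNA in 2, and the sample titles give the Nfib shRNA 1 name in both lines. The KP22 line, labelled Nfib low, expressed Nfib from a cDNA vector in 2 samples and carried the empty vector in 2. Each comparison was made within 1 line, and the 3 comparisons share no samples. Duplicates are not described as independent cultures, so p-values measure only the spread between these samples, which may be technical. The authors' deposited table holds results of comparisons and no value per sample, so levels in each sample and library depths were not analysed here.

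In EMT, epithelial cells lose cadherin-based junctions and keratins and take up a motile, vimentin-rich state. The zinc-finger proteins of the Snail family (Snai1, Snai2, Snai3), the basic helix-loop-helix proteins Twist1 and Twist2, and the zinc-finger homeodomain proteins Zeb1 and Zeb2 are known for binding E-box sequences in target genes, Cdh1 among them. Vimentin (Vim) is the intermediate filament protein of mesenchymal cells and fibronectin (Fn1) a matrix glycoprotein. Small cell lung cancer cells are neuroendocrine, and Nfib, a nuclear factor I (NFI) transcription factor, is known for its link with metastasis of this tumor in mice.

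In 16T with the Nfib shRNA none of the 9 genes passed the test. In KP1 with the Nfib shRNA, Vim fell to 22.2% of the control level, Zeb2 and Zeb1 fell less, and Snai2 and Snai3 rose, per the authors' deposited table. In KP22 with Nfib cDNA, Twist1 rose 14.7-fold, Snai2, Snai3 and Fn1 rose 2.37-fold to 2.90-fold, and Zeb1 fell to 32.2% of the empty vector level, per the authors' deposited table. Snai2, Snai3 and Zeb1 moved the same way in KP1 with less Nfib and in KP22 with more, but when the tests used a t distribution (6 degrees of freedom) the KP1 calls of Snai2, Zeb1 and Zeb2 were lost. Fold changes are of Nfib shRNA over control shRNA, or of Nfib cDNA over empty vector. The words rose and fell are used only for an adjusted p below 0.05 in the authors' Wald test, and ± is the SE on the log2 scale.

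**Figure D1:**
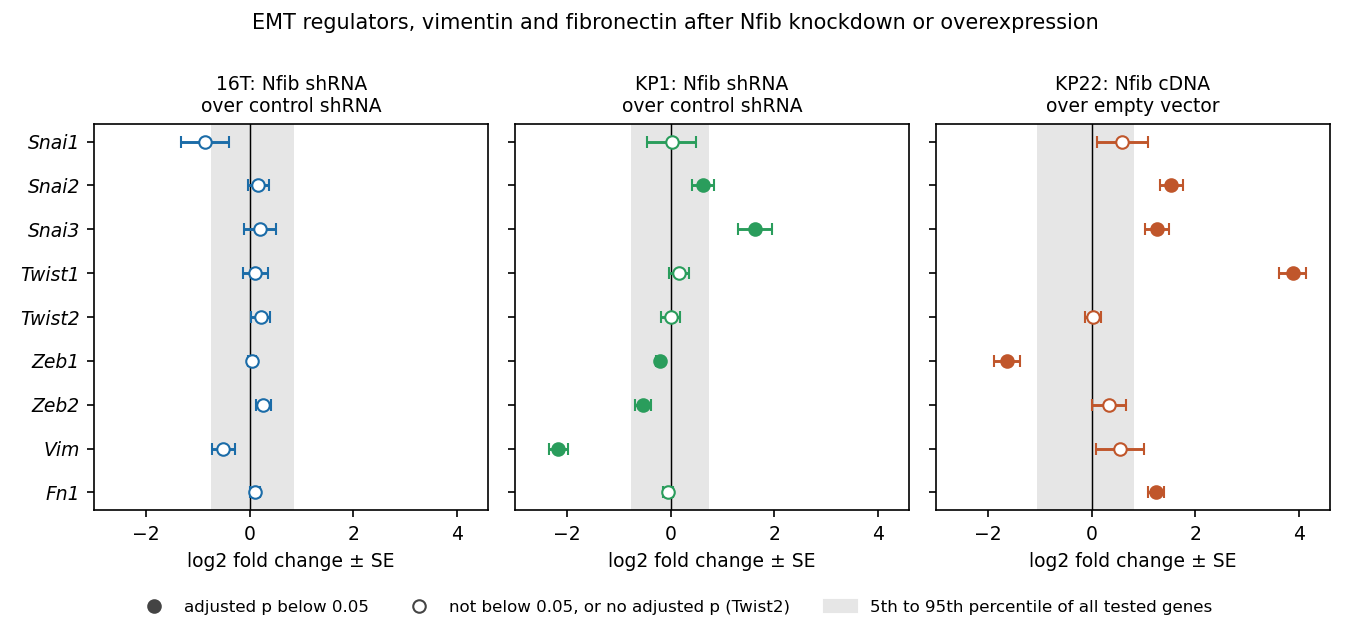
Log2 fold change ± SE of each of the 9 genes in 16T and KP1 (Nfib shRNA over control shRNA) and in KP22 (Nfib cDNA over empty vector), with filled points for an adjusted p below 0.05 and a grey band for the 5th to 95th percentile of all tested genes. Twist1 in KP22 (3.88) and Vim in KP1 (-2.17) lie farthest from 0, and no point is filled in 16T. Twist2 was hardly detected (mean 0.136), so its short bars do not show that it was unchanged.

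Nfib itself had a log2 fold change of -1.08 ± 0.035 in 16T (47.2% of control) and -1.32 ± 0.035 in KP1 (40.0%) in the authors' deposited table. Nfib in KP22 had 1.80 ± 0.036 (3.49-fold) in the authors' deposited table. The table's headings do not give the direction of a comparison, and it was read from these Nfib values. Markers that define the cell type were present in the pooled libraries: 10 neuroendocrine markers each had a mean normalized count of at least 297.5 in the authors' deposited table. This mean pools the 3 lines, so it does not show each marker in each line. Fibroblast markers were mostly low, with 5 of 10 below a mean of 10, a summed mean of 2773 of which Pdgfra held 2220, and Col3a1 at 0. Of 10 leukocyte markers 7 were below 10 (summed mean 198, Cd3e at 0). Of the 8 endothelial markers 3 were below 10, with Emcn at 0 and Vwf at 2353 (summed mean 3358), and of 8 airway markers 2 were below 10, with Scgb1a1 at 0 (summed mean 539).

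The level of each gene over the whole series can be compared only as the authors' mean normalized count over the 12 libraries, divided by the exon length. Zeb1 was highest in the authors' deposited table, at 414 per kb, followed by Vim at 313, Twist1 at 253 and Fn1 at 170 per kb. Snai2 (145 per kb), Snai3 (102 per kb) and Zeb2 (56.0 per kb) followed, and Snai1 was low at 16.0 per kb in the authors' deposited table. Twist2 was at 0.104 per kb, a mean normalized count of 0.136, and so was hardly detected. The median of 19567 genes with a mean above 0 was 233 per kb, which places Zeb1, Vim and Twist1 above the median gene. No spread between samples belongs to these means, so the order of neighbours such as Fn1 and Snai2 cannot be tested. The mean also pools 3 lines, and samples with changed Nfib with their controls. Twist1, which is only a little above the median gene, rose with Nfib cDNA in KP22, and those samples are part of its mean. The level in any single line was not analysed here.

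**Figure D2:**
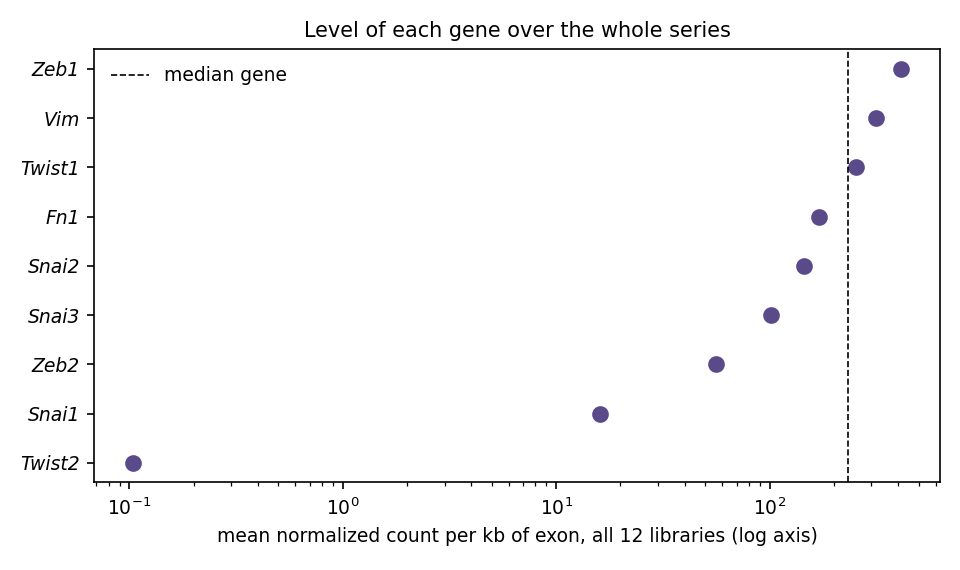
Mean normalized count per kb of exon over all 12 libraries for each of the 9 genes, on a log axis, with the median gene as a dashed line. Zeb1 (414 per kb), Vim (313) and Twist1 (253) lie above the median gene (233), and Twist2 (0.104) lies far below the other 8.

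Calls among the 9 genes were read against the share of all tested genes that were called. Twist2 had no adjusted p in any comparison, which leaves 8 tested genes. In 16T 0 of 8 were called, against 45.3% of 14504 tested genes (20.0% higher, 25.3% lower), and at an unadjusted p below 0.05 only Vim was (1 of 8, against 51.4% of all tested genes). In KP1 5 of 8 were called, 2 higher and 3 lower, against 37.2% of 14504 genes (17.6% higher, 19.6% lower). In KP22 5 of 8 were called, 4 higher and 1 lower, against 38.4% of 17544 genes (19.5% higher, 18.8% lower). With so many genes called in each comparison, being called says little of a gene, and size tells more. All 5 called genes in KP22 had a log2 change of 1 or more and also passed the authors' test against a change of 0.5, which 8.07% and 7.20% of all tested genes did. In KP1 2 of 8 (Vim and Snai3) did both, against 5.96% and 4.87%, and in 16T 0 of 8, against 6.36% and 5.56%. The 8 genes had a median log2 fold change of 0.10 in 16T, -0.01 in KP1 and 0.92 in KP22, and all tested genes had medians of -0.05, -0.02 and 0.04. Under the t distribution the KP1 values had an adjusted p of 0.0974 for Snai2, 0.0935 for Zeb1 and 0.0552 for Zeb2.

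Snai1, which encodes a repressor of Cdh1, was not called in any comparison. It lies on chromosome 2 (chr2:167538227-167542811, mm10, 3 exon intervals), where its mean normalized count was 25.3. Its log2 fold change was listed by the authors' deposited table as -0.86 ± 0.47 in 16T (adjusted p = 0.128), 0.02 ± 0.48 in KP1 (adjusted p = 0.984) and 0.60 ± 0.49 in KP22 (adjusted p = 0.388). At this low count the 95% intervals were wide, -1.78 to 0.05 in 16T, -0.92 to 0.96 in KP1 and -0.37 to 1.56 in KP22. Changes within these bounds are therefore not excluded.

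Snai2, which encodes Slug, a repressor active in neural crest and in EMT of carcinoma cells, rose in both KP1 and KP22. It lies at chr16:14705859-14709382 (mm10, 3 exon intervals) and had a mean normalized count of 292. Its values were, per the authors' deposited table, 0.62 ± 0.21 in KP1 (1.54-fold, adjusted p = 0.0119) and 1.54 ± 0.22 in KP22 (2.90-fold, adjusted p = 7.92e-11). In 16T the authors' deposited table gave Snai2 0.16 ± 0.20 (adjusted p = 0.564). In KP22 230 of 17544 tested genes rose more (1.31%). Nfib was lower in KP1 with the shRNA and higher in KP22 with the cDNA, while Snai2 was higher in both. The KP1 call was lost under the t distribution (adjusted p = 0.0974).

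Snai3, the third Snail gene, rose in the same 2 comparisons. At chr8:122454206-122460692 (mm10, 3 exon intervals) and a mean of 162, it had 1.63 ± 0.33 in KP1 (3.09-fold, adjusted p = 6.14e-06) and 1.26 ± 0.24 in KP22 (2.40-fold, adjusted p = 9.11e-07) in the authors' deposited table. Both values passed the authors' test against a change of 0.5, with adjusted p of 0.0166 and 0.022 in the authors' deposited table. In 16T it had 0.20 ± 0.31 (adjusted p = 0.658) in the authors' deposited table. In KP1 138 of 14504 tested genes (0.951%) rose more.

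Twist1, a helix-loop-helix factor of mesoderm and neural crest, had the largest change of the 9 genes. In KP22 with Nfib cDNA it rose by 3.88 ± 0.27 (14.7-fold, adjusted p = 2.4e-46) in the authors' deposited table, and 12 of 17544 tested genes rose more (0.0684%). Neither knockdown line showed a call: the authors' deposited table gave 0.11 ± 0.24 in 16T (adjusted p = 0.772, 95% interval -0.37 to 0.58) and 0.16 ± 0.19 in KP1 (adjusted p = 0.582, -0.21 to 0.52). Twist1 lies at chr12:33957671-33959831 (mm10, 2 exon intervals), with a mean of 412. Its nearest tested neighbours, Twistnb at 518.3 kb and Hdac9 at 87.8 kb, were not called in KP22, with 0.16 ± 0.11 (adjusted p = 0.295) and 0.15 ± 0.09 (adjusted p = 0.191) in the authors' deposited table. Of the 10 nearest tested neighbours of the 5 genes called in KP22, 5 were called there, against 38.4% of all tested genes (19.5% higher, 18.8% lower). Of these 5, 4 went in the direction of the EMT gene beside them, among them Gm20735 near Snai3, at a mean of 2.97. In KP1 2 of 10 such neighbours were called, 0 in the same direction, against 37.2% of all tested genes. Counts out of 10 are too small to set the neighbours apart from all genes. Twist2, its paralog, had no adjusted p, and the authors' deposited table gave it 0.21 ± 0.18 in 16T, -0.0031 ± 0.19 in KP1 and 0.02 ± 0.16 in KP22. At a mean of 0.136 Twist2 was hardly detected, so these small SEs do not show that it was unchanged. Its exons at chr1:91801477-91848027 (mm10) overlap an annotated antisense gene, Gm29100, and the library kit does not mark strand.

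NFI proteins bind the motif TTGGC, alone or as a palindrome in which 5 other bases part TTGGC from its reverse complement, so the promoter of Twist1 is shown with the letters of this motif in capitals. Positions are counted from the transcription start of the RefSeq table (build GRCm38.p6), whose promoters run from 250 bases before to 50 bases after it. The plus-strand window chr12:33957421-33957720 reads as follows.
Twist1: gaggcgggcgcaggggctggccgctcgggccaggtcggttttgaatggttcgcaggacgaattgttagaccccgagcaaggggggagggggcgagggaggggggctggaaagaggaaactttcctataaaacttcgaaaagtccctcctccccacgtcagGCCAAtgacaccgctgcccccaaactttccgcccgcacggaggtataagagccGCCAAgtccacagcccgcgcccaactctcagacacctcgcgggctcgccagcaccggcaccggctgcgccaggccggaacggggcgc
Both matches are in the reverse orientation, GCCAA, and begin 90 and 37 bases before the start. The match at -90 shares bases with a CCAAT box, which other factors bind. Of 32851 mouse promoters of this length, 46.7% hold at least 1 TTGGC on either strand and 14.4% hold at least 2, so the Twist1 promoter shares this feature with many genes. The table held promoters for 5 of the 9 genes, 8 promoters in all, of which 8 hold the motif and none holds the palindrome, which 0.0365% of all promoters do. Of the 8, 4 are promoters of Zeb2, and 2 of those overlap and hold the same match, so the 8 are not separate regions. The E-box form CAGGTG that Snail and Zeb proteins bind was found on either strand in 1 of the 8, that of Snai1 (126 bases before the start), against 20.2% of all promoters. A match describes letters and is no measure of binding.

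Zeb1, which represses Cdh1 and the microRNA genes of the miR-200 family, fell in KP1 and in KP22. Zeb1 had, per the authors' deposited table, -1.63 ± 0.26 in KP22 with Nfib cDNA (32.2% of the empty vector level, adjusted p = 1.93e-09) and -0.21 ± 0.07 in KP1 with the Nfib shRNA (86.2% of control, adjusted p = 0.0104). It had 0.04 ± 0.07 in 16T (adjusted p = 0.679) in the authors' deposited table, with a 95% interval of -0.10 to 0.18. Under the t distribution the KP1 call was lost (adjusted p = 0.0935). Zeb1 lies at chr18:5591860-5775468 (mm10, 8 exon intervals) and had the highest mean of the 9 genes, 2404. Its SE in KP22 was 3.59 times that in KP1, whereas the median ratio over 12287 genes whose mean was 100 or more was 1.01 and the 95th percentile 1.30. A larger SE was also seen in KP22 for Vim (2.58 times), Zeb2 (2.27 times), Fn1 (1.61 times) and Twist1 (1.42 times). In KP22 the median SE was 0.477 where means lay between 10 and 100, and 0.069 in the range of means that holds Zeb1. The mean of 2404 pools all lines and does not give the level of Zeb1 in KP22. Whether low counts in KP22 go with the larger SEs of these genes was not tested.

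Zeb2, the Zeb1 paralog with roles in neural crest and neurons, fell in KP1. Its values in the authors' deposited table were -0.53 ± 0.15 in KP1 (69.0% of control, adjusted p = 0.00137), 0.26 ± 0.14 in 16T (adjusted p = 0.145) and 0.34 ± 0.33 in KP22 (adjusted p = 0.483). The KP1 call was lost under the t distribution (adjusted p = 0.0552). The entry covers 7 exon intervals of chr2:44983512-45017468 (mm10) at a mean of 469. Further exons of Zeb2 are under joined names, among them an interval shared with the microRNA gene Mir5129 at a mean of 38.7. That interval had -0.43 ± 0.42 in KP1 (adjusted p = 0.485) in the authors' deposited table.

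Vim fell in KP1 by 2.17 ± 0.18 on the log2 scale, to 22.2% of the control level, in the authors' deposited table (adjusted p = 8.46e-31). A test by the authors against a change of 0.5 gave an adjusted p of 7.88e-18, and 44 of 14504 tested genes (0.303%) fell more. In 16T Vim had -0.51 ± 0.22 (70.3% of control) in the authors' deposited table, with an adjusted p of 0.0549 and an unadjusted p of 0.023, and was not called, but adjusted over features with a mean of 100 or more its p was 0.0484. In KP22 it had 0.55 ± 0.47 (adjusted p = 0.41, 95% interval -0.38 to 1.47) in the authors' deposited table. The estimates were below 0 with less Nfib, but Vim was called in KP1 and in neither of the other lines. In KP22 the SE was 2.58 times that in KP1 and the interval includes 0, so the direction with more Nfib is not known. The missing call in KP22 does not show a difference from KP1. In bulk RNA, fewer cells with vimentin and less vimentin RNA per cell cannot be told apart. Vim lies at chr2:13574311-13582826 (mm10, 9 exon intervals), with a mean of 575.

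The Vim promoter, chr2:13574061-13574360 on the plus strand of GRCm38.p6 from RefSeq, also holds 2 TTGGC matches, in capitals here.
Vim: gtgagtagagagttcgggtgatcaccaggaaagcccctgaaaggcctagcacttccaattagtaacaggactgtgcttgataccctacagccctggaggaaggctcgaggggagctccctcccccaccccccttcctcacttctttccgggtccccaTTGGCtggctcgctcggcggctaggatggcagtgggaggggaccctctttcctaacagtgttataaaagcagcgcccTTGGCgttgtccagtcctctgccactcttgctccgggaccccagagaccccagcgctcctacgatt
They begin 93 and 16 bases before the start, in the forward orientation, and the match at -93 shares bases with a CCAAT box. The promoters of Twist1 and Vim thus have the same number of matches, in opposite orientations, while Twist1 was called in KP22 and Vim in KP1.

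Fn1 rose in KP22 with Nfib cDNA, by 1.24 ± 0.16 in the authors' deposited table (2.37-fold, adjusted p = 3.17e-14). In the knockdown lines the values in the authors' deposited table were 0.10 ± 0.10 in 16T (adjusted p = 0.469) and -0.05 ± 0.10 in KP1 (adjusted p = 0.777). Their 95% intervals, -0.10 to 0.29 and -0.24 to 0.14, hold no change as large as that in KP22. Fn1 lies at chr1:71585473-71653234 (mm10, 45 exon intervals), with a mean of 1349, and its exons overlap an antisense gene, Apol7d. A joined entry of 467 bp with exons of Fn1 alone, at a mean of 79.6, had 0.68 ± 0.44 in KP22 (adjusted p = 0.236) in the authors' deposited table.

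Differences between lines were tested from the deposited effects and SEs over 15008 genes. The knockdown effect differed between 16T and KP1 for 4 of 8 genes, against 29.4% of all genes. For Vim the log2 fold change in the authors' deposited table was -0.51 in 16T and -2.17 in KP1, a difference of 1.66 ± 0.29 (adjusted p = 1.5e-07). For Zeb2 the difference was 0.79 ± 0.21 (adjusted p = 0.000822), for Snai3 -1.43 ± 0.45 (adjusted p = 0.00798) and for Zeb1 0.26 ± 0.10 (adjusted p = 0.0389). Snai2 had a difference of -0.46 ± 0.29 (adjusted p = 0.247), so its rise in KP1 was not shown to differ from 16T. With the t distribution named above, the difference was called for 1 of the 8, Vim, and Zeb1 lost its call also over genes with a mean above 0 (adjusted p = 0.0506). Twist1, Fn1 and Snai1 had adjusted p of 0.934, 0.492 and 0.353.

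The mean knockdown effect, turned in sign so that it runs towards higher Nfib, differed from the KP22 effect for 5 of 8 genes, against 36.7% of all genes. For Twist1 these were -0.13 and 3.88, a difference of -4.01 ± 0.31 (adjusted p = 4.22e-37). For Snai3 (-2.18 ± 0.33, adjusted p = 4.68e-10) and Snai2 (-1.93 ± 0.27, adjusted p = 8.02e-12) the turned knockdown effects were below 0, at -0.91 and -0.39, and the KP22 effects above 0. For Fn1 the difference was -1.27 ± 0.17 (adjusted p = 2.09e-12) and for Zeb1 1.72 ± 0.26 (adjusted p = 5.83e-10). Vim had 1.34 and 0.55, a difference of 0.79 ± 0.49 (adjusted p = 0.215) whose 95% interval was -0.17 to 1.76. Averaged over the 3 lines towards higher Nfib, Twist1 (1.21 ± 0.14), Vim (1.08 ± 0.18) and Fn1 (0.40 ± 0.07) were above 0 and Zeb1 (-0.49 ± 0.09) below, 4 of 8 calls against 52.9% of all genes (29.2% above 0, 23.7% below). The largest single effect among the 3 lines was in KP22 for Twist1, Fn1 and Zeb1, and in KP1 for Vim.

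**Figure D3:**
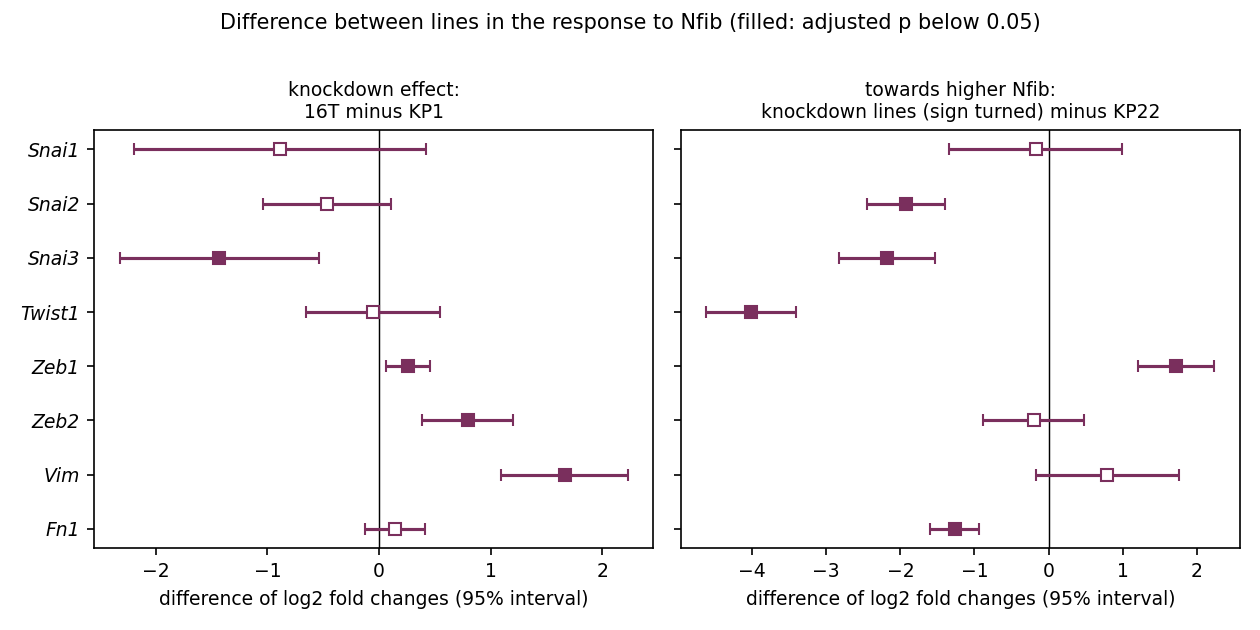
Difference of log2 fold changes with its 95% interval for the 8 tested genes, between 16T and KP1 at left, and between the sign-turned mean of the knockdown lines and KP22 at right, with filled squares for an adjusted p below 0.05. Vim (1.66) stands out at left and Twist1 (-4.01) at right.

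Genes on which these regulators act, or with which they work, moved in both directions. The counts over lists of such genes stand beside 45.3% of all tested genes called in 16T, 37.2% in KP1 and 38.4% in KP22, and nothing is shown to be particular to a list. Cdh1, which encodes E-cadherin, the best known target of Snail and Zeb proteins, rose in all 3 comparisons of the authors' deposited table, by 4.83 ± 0.13 in 16T, 1.20 ± 0.07 in KP1 and 0.22 ± 0.06 in KP22. Its rise was largest in 16T, and a link between its changes and those of the EMT genes was not tested. Cdh2, which encodes N-cadherin, was called in none, with -0.02 ± 0.06, -0.11 ± 0.06 (adjusted p = 0.107) and 0.08 ± 0.06 (adjusted p = 0.271) in the authors' deposited table. Epcam, an epithelial surface protein gene, fell in 16T (-0.55 ± 0.05) and rose in KP22 (0.17 ± 0.04, adjusted p = 0.000628), per the authors' deposited table, with 0.06 ± 0.05 in KP1 (adjusted p = 0.396). The authors' deposited table gave Grhl2, a factor known to repress Zeb1, -0.57 ± 0.09 in 16T and 1.07 ± 0.08 in KP22, both called. In KP1 Grhl2 was not called (-0.25 ± 0.14, adjusted p = 0.155). Zeb1 fell in KP22 and in KP1, and was not called in 16T (0.04 ± 0.07, adjusted p = 0.679). A link between the changes of Grhl2 and Zeb1 was not tested. In 16T 5 of 22 epithelial junction and keratin genes rose and 5 fell, in KP1 6 rose and 6 fell, and in KP22 4 rose and 5 fell, or 45.5%, 54.5% and 40.9% called. Dsp, which encodes desmoplakin, had -1.37 ± 0.10, -1.58 ± 0.05 and 0.61 ± 0.05 in 16T, KP1 and KP22 in the authors' deposited table, called each time.

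Other EMT regulators moved in both directions. Of 11 tested in 16T, 3 rose and 5 fell, and of 11 in KP1, 3 rose and 6 fell. Of 15 tested in KP22, 6 rose and 1 fell. The called shares were 72.7% in 16T, 81.8% in KP1 and 46.7% in KP22, against 45.3%, 37.2% and 38.4% of all tested genes. The forkhead gene Foxq1 had -1.92 ± 0.44 in KP1 and 1.70 ± 0.43 in KP22, and Elf3, an epithelial ETS factor gene, -1.11 ± 0.08 and 0.93 ± 0.08, in the authors' deposited table. The authors' deposited table also showed a fall of Sox9 in KP1 (-1.73 ± 0.17) and a rise of Foxc1 in KP22 (1.16 ± 0.17). Of 10 epithelial repressors of EMT, 6 rose and 0 fell in KP22, also at an unadjusted p below 0.05 (60.0% called, all higher, where 19.5% of all tested genes were called higher), with Klf4 (1.05 ± 0.17) and Ovol1 (0.43 ± 0.14, adjusted p = 0.0107) beside Grhl2 in the authors' deposited table. Of 9 tested in the knockdown lines, 1 rose and 2 fell in 16T (33.3% called) and 3 rose and 1 fell in KP1 (44.4% called). Klf4 rose there too, by 0.67 ± 0.14 in 16T and 0.58 ± 0.16 in KP1, so its rise was not particular to Nfib cDNA.

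Among the listed mesenchymal effector genes, which leave out Fn1 and Vim, no rise was called in KP22. Fn1, counted with the EMT genes, rose there, as did Twist1. A link between Twist1 and the listed genes was not tested. Of 25 tested there, 0 rose and 4 fell by the authors' Wald test (0 and 5 at an unadjusted p below 0.05, median -0.24), including Col5a1 (-1.40 ± 0.51, adjusted p = 0.0195) in the authors' deposited table. The called share was 16.0%, against 38.4% of all tested genes. Many were scarce, as 12 of the 27 listed had a mean below 10 and 2 were at 0. Of 14 tested in each knockdown line, 3 rose and 1 fell in both (28.6% called, against 45.3% in 16T and 37.2% in KP1): Cdh11, a mesenchymal cadherin gene, fell by 1.12 ± 0.09 in 16T and by 1.93 ± 0.10 in KP1 in the authors' deposited table. Spp1, which encodes osteopontin, had 2.76 ± 0.39 and 1.47 ± 0.37 in these lines, both called, in the authors' deposited table. Fibroblast markers showed 0 rises and 2 falls among 9 tested in KP22 (0 and 3 at an unadjusted p below 0.05), 3 rises and 0 falls among 5 in 16T (3 and 0 unadjusted), and 0 and 1 among 5 in KP1 (2 and 1 unadjusted). Leukocyte markers had no call, among 1 tested in each knockdown line and 6 in KP22 (0 and, in KP22, 1 unadjusted). Of endothelial markers 1 rose and 1 fell among 5 in 16T, 2 rose and 1 fell in KP1, and 0 rose and 3 fell among 6 in KP22. Of airway markers 1 of 4 fell in 16T, and none was called of 4 in KP1 (0 unadjusted) and of 7 in KP22 (1 unadjusted). Among the neuroendocrine markers 4 rose and 3 fell in 16T, 5 rose and 4 fell in KP1, and 2 rose and 7 fell in KP22, or 70.0%, 90.0% and 90.0% called. What part these cell types have in the changes of the EMT genes was not tested.

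**Figure D4:**
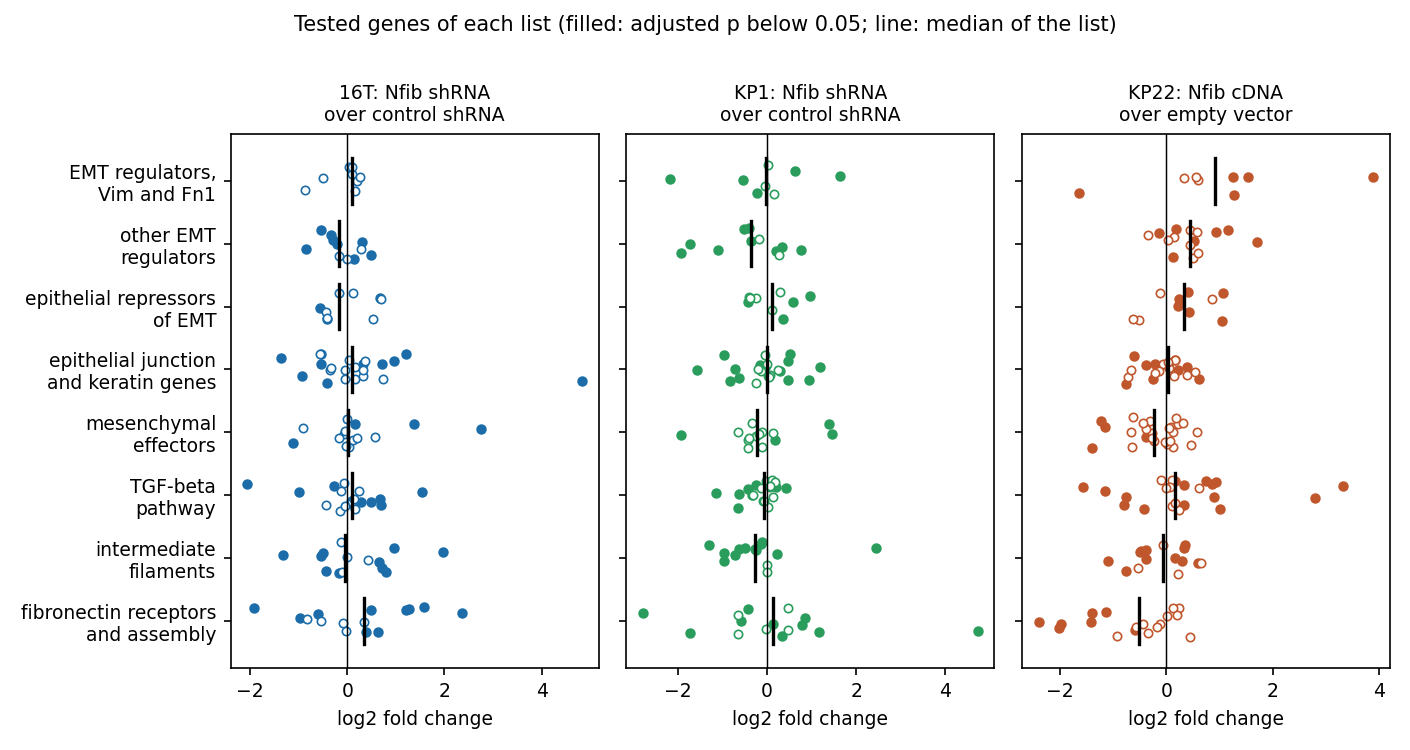
Log2 fold changes of the tested genes of 8 lists in each comparison, with filled points for an adjusted p below 0.05 and a vertical bar for the median of the list. The 8 tested EMT genes have their highest median in KP22 (0.92), where the mesenchymal effectors have a median of -0.24 and the fibronectin receptors one of -0.51.

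Vimentin was not the only intermediate filament gene to change. In the list of such genes, 5 of 14 tested rose and 5 fell in 16T, 2 rose and 10 fell in KP1, and 5 of 15 rose and 6 fell in KP22. These counts include Plec, whose protein plectin links filaments and is not a filament protein itself. Plec was called in each comparison (-0.17 in 16T, -0.27 in KP1, 0.33 in KP22). The called shares were 71.4% in 16T, 85.7% in KP1 and 73.3% in KP22, against 45.3%, 37.2% and 38.4% of all tested genes. Nestin (Nes), which can form filaments with vimentin, rose in 16T (1.96 ± 0.25) and in KP1 (2.45 ± 0.22) in the authors' deposited table, opposite to Vim in KP1. The neurofilament gene Nefl fell in both, by 1.32 ± 0.34 and 0.97 ± 0.08, and Nefm fell in KP1 by 1.29 ± 0.13 in the authors' deposited table. Krt18, a keratin of simple epithelia, rose in 16T (0.72 ± 0.05) and fell in KP1 (-0.95 ± 0.04) and KP22 (-0.76 ± 0.04) in the authors' deposited table.

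Among genes of fibronectin receptors and assembly no rise was called in KP22, where Fn1 rose. Of 18 tested there, 0 rose and 7 fell by the authors' Wald test (1 and 8 at an unadjusted p below 0.05), and 11 were not called. The called share of 38.9% was near the 38.4% of all tested genes, and the median was -0.51 against 0.04. The 7 included Sdc2, a syndecan gene (-2.40 ± 0.48), Itgb5, an integrin subunit gene (-1.98 ± 0.45), and the tensin gene Tenc1 (-2.02 ± 0.11) in the authors' deposited table. In the knockdown lines, where Fn1 was not called, 7 rose and 3 fell of 15 in 16T, and 6 rose and 4 fell in KP1 (66.7% called in both). Tgm2, which encodes a transglutaminase that binds fibronectin, rose by 1.59 ± 0.28 in 16T and 4.72 ± 0.30 in KP1, and the integrin subunit gene Itga8 fell by 1.92 ± 0.26 and 2.78 ± 0.28, in the authors' deposited table.

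Transforming growth factor beta (TGF-beta) signalling is a well known inducer of these regulators. Of 23 genes of this pathway tested in KP22, 10 rose and 5 fell (65.2% called, against 38.4% of all tested genes), with Ltbp1, which encodes a latent TGF-beta binding protein, at 3.32 ± 0.12 and the receptor gene Tgfbr2 at -1.57 ± 0.51 (adjusted p = 0.00731) in the authors' deposited table. Of 19 in each knockdown line, 6 rose and 3 fell in 16T (47.4% called) and 2 rose and 6 fell in KP1 (42.1% called). Ltbp1 fell in both, by 2.06 ± 0.11 and 0.62 ± 0.09, and so did Pmepa1, a feedback inhibitor, by 0.65 ± 0.09 in KP1, in the authors' deposited table. Among 8 tested dimerization partners and inhibitors of Twist proteins, 5 rose and 1 fell in KP22 (6 of 8 called), and 5 rose and 1 fell of 7 tested in each knockdown line (85.7% called). In KP22 the authors' deposited table showed rises of the inhibitor genes Id1 (0.88 ± 0.06) and Id2 (0.76 ± 0.05) and of the E protein gene Tcf3 (0.19 ± 0.05). Of 14 Snail and Zeb cofactor genes 6 rose and 2 fell in KP22, of 13 tested 3 rose and 7 fell in 16T, and 0 rose and 3 fell in KP1 (0 and 4 at an unadjusted p below 0.05), which makes 57.1% called in KP22, 76.9% in 16T and 23.1% in KP1. In KP1 these were Kdm1a (-0.23 ± 0.04), Hdac2 (-0.21 ± 0.04) and Suz12 (-0.12 ± 0.05, adjusted p = 0.0226) in the authors' deposited table, genes of a histone demethylase, a deacetylase and a Polycomb protein. Of genes that set Snail protein stability, 5 of 14 rose and 2 fell in KP22, 6 of 12 rose and 1 fell in 16T, and 3 rose and 2 fell in KP1, so that 7 of 14 were called in KP22, 58.3% in 16T and 41.7% in KP1. The kinase gene Prkd1 rose in all 3, which the authors' deposited table gave as 0.89 ± 0.12 in 16T, 0.87 ± 0.13 in KP1 and 0.70 ± 0.13 in KP22. The 9 microRNA genes of the miR-200, miR-205 and miR-34 groups had means of at most 4.22, and of 4 tested in KP22 none was called (0 at an unadjusted p below 0.05). In each knockdown line 0 were tested. Counts this low cannot show whether these microRNAs are present or changed.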

How the data were processed

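Per the labels' protocols, RNA was isolated on Qiagen columns and sequenced from Illumina TruSeq libraries, which do not mark strand. The submitters' processing notes name TopHat, bedtools, DESeq, DESeq2 and the build mm10, with versions not given in the sources used here. Per the file headers, the authors deposited for 28112 features the mean normalized count, a signal averaged over all libraries. For each comparison they deposited a log2 fold change with its SE, the Wald score, and p-values before and after adjustment, also for a test against a log2 change of 0.5. The largest deposited SE was 0.521, so log2 fold changes may be shrunken towards 0. Positions and exon lengths come from the authors' deposited list of 211975 exon intervals. The 4886 features with joined names were left out, except where named.

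Library totals are unknown here, so precision is that of the deposited SEs, with a median of 0.455 in 16T where means lay between 10 and 100. Python 3.11.15, pandas 2.3.3 and scipy 1.17.1 were used for 3 contrasts over 15008 genes with a mean of 10 or more. Effects entered as independent, were tested against a normal distribution and adjusted by Benjamini-Hochberg, and the calculation was tested on simulated data. The 95% intervals rest on the same distribution.

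Members and gene lists were chosen with earlier results of these data known. The 9 genes, Nfib, Cdh1, Cdh2, Epcam and Grhl2 were to be named in every comparison, with up to 3 called genes of each of the 16 other lists that had the largest change. Genes of like pattern were to be named for a member called in all 3 comparisons, and there was none. Some genes are in more than 1 list. Alternatives tried were recentring on the median gene, a t distribution, the test against 0.5, a change of 1 or more, other minimum means, and joined features.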

Additional observations from a re-analysis of the deposited data

Results flagged for a closer look

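Each difference listed here passed its test, which is a normal test on the deposited effects and SEs with Benjamini-Hochberg adjustment over 15008 genes, and each is given as a log2 difference ± SE.

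The knockdown effect differed between lines, as 16T minus KP1, for Vim (1.66 ± 0.29), Zeb2 (0.79 ± 0.21), Zeb1 (0.26 ± 0.10) and Snai3 (-1.43 ± 0.45) among the EMT genes. It also differed for the epithelial genes Cdh1 (3.64 ± 0.14) and Epcam (-0.61 ± 0.07).

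The mean knockdown effect turned towards higher Nfib, minus the KP22 effect, differed for Twist1 (-4.01 ± 0.31), Snai3 (-2.18 ± 0.33), Snai2 (-1.93 ± 0.27), Fn1 (-1.27 ± 0.17) and Zeb1 (1.72 ± 0.26). Cdh1 (-3.24 ± 0.09) and Grhl2 (-0.66 ± 0.11) differed as well. Line, method (shRNA or cDNA) and starting Nfib level change together between the knockdown lines and KP22, and cannot be told apart.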

How the results depend on the processing

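No paired analysis was possible because the deposited table holds no values per sample, and for the same reason no replicate could be left out and no depth is known. In 16T, adjusting over features with a mean of at least 100 called 1 of the EMT genes, Vim (adjusted p = 0.0484), in place of 0. In KP1, 2 in place of 5 were called under a t distribution (6 degrees of freedom), with the authors' test against 0.5 and with a change of at least 1. Under the t distribution Snai2 (adjusted p = 0.0974), Zeb1 (0.0935) and Zeb2 (0.0552) lost the call in KP1, while Vim and Snai3 kept it. The 16T minus KP1 difference was then called for 1 gene, Vim, in place of 4, and that of Zeb1 also lost its call over genes with a mean above 0 (adjusted p = 0.0506). The 5 calls in KP22 and the 5 against the knockdown lines stood under every alternative run for them. With joined exons, Fn1 had 169.583 and Zeb2 55.3247 per kb. Of 372 alternatives for single genes, 349 kept their call or lack of one, 21 lost the call, 2 gained it and 0 turned a called sign. In 1 of the 349 an uncalled sign turned: Cdh2 in 16T had -0.02, and 0.04 when recentred on the median gene. Over all genes, the t distribution called 3091 in KP1, 4325 in KP22, 1870 for 16T minus KP1 and 3356 for the knockdown lines against KP22, where the normal one called 5402, 6730, 4417 and 5515. The test against 0.5 called 813, 709 and 1264 in 16T, KP1 and KP22, and a change of at least 1 left 923, 864 and 1416, against 6574 in 16T. Recentring on the median gene turned the split in 16T from 2907 higher and 3667 lower into 3468 and 2961.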
